A study of Mus musculus with 4 samples.

Results

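Gfi1 and Gfi1b are paralogous genes for zinc finger repressors of blood development. Accessible chromatin at both loci was compared between hematopoietic stem cells with and without the Mediator subunit Med23. Every peak of the deposited WT and KO lists that overlapped either gene body, or the 50 kb on each side of it, was taken. Overlapping peaks of both lists were merged, which gave 11 regions of 45475 in the whole series, 7 at Gfi1 and 4 at Gfi1b. The genes were chosen by name and not by a value, although earlier results of these data were known. A region entered wherever either list held a peak.

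The regions came from ATAC-seq, in which a transposase cuts and tags open DNA. WT cells were from C57BL/6 adult mice with floxed Med23 (labelled Med23floxp/flowp) and no cre, and KO cells from mice with the same floxed alleles and Mx1-cre. All cells were bone marrow stem cells sorted as LSK CD150+CD34-CD48- per the labels (the study's methods name no CD34 gate), with 5000 cells per reaction and 2 samples of each genotype. Mx1-cre is switched on by interferon, in the study's methods by injected poly(I:C), and it acts in other interferon-responsive cells as well as in stem cells. In the study WT mice were littermates without cre, and for its blood counts both genotypes received poly(I:C). Whether the WT mice of these ATAC-seq samples were injected, and whether the samples came from separate mice, is not given in the sources used here. The labels of both samples of a genotype name 1 common peak list. Each value below is therefore a single value per genotype, with no replicate error and no test.

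GFI1 restrains the cycling of stem cells and later promotes granulocyte and lymphoid fates, whereas GFI1B is required for red cell and platelet development. Both proteins carry a SNAG domain that recruits the demethylase LSD1 and its CoREST partners, and both can repress their own and each other's gene through DNA words with an AATC core. In blood progenitors, elements upstream of Gfi1 that lie inside the neighbouring gene Evi5 are known to be bound by factors such as TAL1, GATA2, RUNX1 and ERG.

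The DNA under 7 of the 11 summits is given first. They include every summit window that held a word for GATA factors, so they are not typical of all 11. Each line is the forward strand of GRCm38.p6, the mm10 build, 200 bases centred on the WT summit. Both genes lie on the reverse strand. Capitals mark fixed words searched on both strands. These were AATCAC for GFI1, AGATAA or TGATAA for GATA factors, AGGAAG for ETS factors, TGTGGT or TGCGGT for RUNX factors and CAGATG or CAGCTG for E-box factors. A match describes the letters and is not evidence of binding.
Gfi1, 33.3 kb upstream, the strongest region, chr5:107759201-107759400: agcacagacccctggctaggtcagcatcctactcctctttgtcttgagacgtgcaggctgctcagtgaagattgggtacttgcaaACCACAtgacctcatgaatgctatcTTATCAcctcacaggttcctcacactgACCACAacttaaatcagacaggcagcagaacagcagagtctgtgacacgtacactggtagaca
Gfi1, 42.4 kb upstream, with a pair of GATA words, chr5:107768320-107768519: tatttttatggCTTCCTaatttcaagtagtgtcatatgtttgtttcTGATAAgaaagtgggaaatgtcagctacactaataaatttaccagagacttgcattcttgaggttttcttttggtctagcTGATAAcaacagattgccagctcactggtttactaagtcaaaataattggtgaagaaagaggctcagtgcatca
Gfi1, 0.5 kb downstream of the 5′ end, in the WT list only, chr5:107725423-107725622: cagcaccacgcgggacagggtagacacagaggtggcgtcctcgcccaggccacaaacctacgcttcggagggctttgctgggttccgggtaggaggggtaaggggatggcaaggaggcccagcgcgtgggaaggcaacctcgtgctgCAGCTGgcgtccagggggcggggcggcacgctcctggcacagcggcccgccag
Gfi1, 27.0 kb downstream, in the WT list only, chr5:107698950-107699149: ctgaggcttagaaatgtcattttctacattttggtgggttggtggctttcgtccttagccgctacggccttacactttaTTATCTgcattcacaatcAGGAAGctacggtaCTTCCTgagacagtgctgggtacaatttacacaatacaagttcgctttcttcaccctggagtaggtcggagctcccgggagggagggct
Gfi1, 37.7 kb downstream, with a pair of GFI1 words, chr5:107688212-107688411: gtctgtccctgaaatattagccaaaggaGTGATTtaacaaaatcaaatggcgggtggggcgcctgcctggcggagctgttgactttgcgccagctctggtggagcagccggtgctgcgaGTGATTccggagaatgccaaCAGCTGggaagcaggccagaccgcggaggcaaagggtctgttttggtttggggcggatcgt
Gfi1b, 23.6 kb downstream, its distal region, chr2:28598237-28598436: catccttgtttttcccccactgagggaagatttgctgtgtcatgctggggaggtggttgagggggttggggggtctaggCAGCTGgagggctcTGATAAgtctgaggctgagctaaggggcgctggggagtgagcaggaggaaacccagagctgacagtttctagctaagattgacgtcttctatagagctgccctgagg
Gfi1b, 0.1 kb upstream, its promoter, chr2:28622021-28622220: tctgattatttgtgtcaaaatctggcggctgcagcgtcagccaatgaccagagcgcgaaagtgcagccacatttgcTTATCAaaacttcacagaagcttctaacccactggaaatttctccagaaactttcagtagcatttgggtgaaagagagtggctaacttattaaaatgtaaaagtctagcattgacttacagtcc

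The height of a peak is given as its summit pileup, the number of reads or fragments stacked over the summit, which was recovered from the deposited fold enrichment and p-value. Its level was modest in both lists, with a median of 18 in WT and 19 in KO over all peaks. A KO to WT ratio is the log2 ratio of summit pileups less the median of 0.08 over the 28909 regions in which each list had 1 peak. The 95% intervals beside these ratios are exact binomial, from the pair of pileups, and cover counting error only. A region was called past 1.5-fold when this ratio exceeded 1.5-fold in either direction. A promoter region had its summit within 1000 bp of an annotated start site, and all others were called distal. Kit, Mecom and Hlf, which mark stem cells, had a promoter peak in both lists, whereas Ly6a, Slamf1 and Procr had none in either. Of the genes of mature cells examined, Cd3e, Ly6g, Itgam and Elane had none in either list. The promoter of Med23 itself had a pileup of 64 in WT and 85 in KO, a ratio of 0.33 (−0.16 to 0.82).

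The first comparison asked which sites were accessible around Gfi1 (ENSMUSG00000029275.18, chromosome 5, 107716657 to 107726036). The strongest chromatin lay upstream in Evi5, and it was present in both genotypes. The 5′ part of Gfi1 held weaker peaks, 2 of them in WT and 1 in KO, the KO summit 2.5 kb inside the gene. Of the 7 regions, 5 were shared by the lists (71.4%, 95% Wilson interval 35.9 to 91.8), 2 had a WT peak alone and 0 a KO peak alone. Over all regions, 64.8% were shared, 18.1% had a WT peak alone and 17.2% a KO peak alone.

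**Figure D1:**
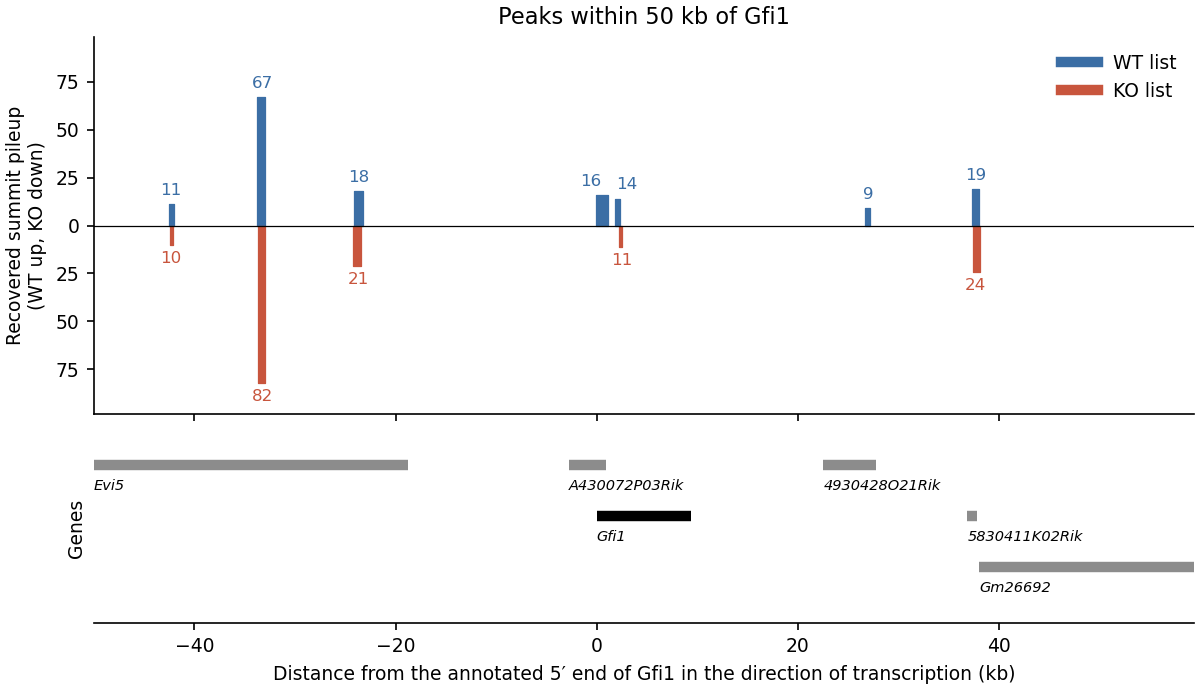
Summit pileup of each peak (vertical axis, WT upward and KO downward) against distance in kb from the 5′ end of Gfi1 in the direction of transcription, with genes as bars below. The site 33.3 kb upstream reached 67 in WT and 82 in KO, and the peaks 0.5 kb and 27.0 kb downstream had no KO counterpart.

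The region 33.3 kb upstream of Gfi1, at 107759060 to 107759824 in an intron of Evi5, was the highest of the 11. Reads were stacked 67 deep at its WT summit and 82 deep at its KO summit. Its fold enrichment over local background was 13.7 in WT and 18.5 in KO, at percentile 99.2 of the WT list and 99.5 of the KO list. The site was thus among the strongest peaks of either genotype. The ratio was 0.21 (−0.27 to 0.70), an excess in KO that was within counting error. It lay at percentile 77.6 of shared regions with a summed pileup within 20% of its own. The WT and KO summits were 12 bp apart. In the sequence above, its summit holds a GATA word at base 111 between RUNX words at bases 86 and 138.

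The other 2 upstream regions also lay in introns of Evi5 and were in both lists. The region 23.7 kb upstream, at 107749280 to 107750261, had a summit pileup of 18 in WT and 21 in KO, with a ratio of 0.14 (−0.84 to 1.13). The region 42.4 kb upstream, at 107768069 to 107768521, had 11 in WT and 10 in KO, with a ratio of −0.22 (−1.61 to 1.16). Both ratios were within counting error, and they differed in sign. The summits of WT and KO were 12 bp and 39 bp apart. Over the 3 shared distal regions of Gfi1 the median ratio was 0.14, against 0.06 over all shared distal regions.

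The 5′ end of Gfi1 differed between the lists in which peaks were called. In WT, a peak of 1220 bp at 107724927 to 107726146 covered the outermost start site, and its summit lay 0.5 kb inside the gene, in an intron of Gfi1 and of the antisense transcript A430072P03Rik. Its summit pileup was 16 over a local background of 3.25, a fold enrichment of 4.00 at percentile 11.0 of the WT list. The KO list had no peak there. Among WT promoter peaks within 5 percentile points of it by fold, 377 of 887 (42.5%) had no KO overlap. A lone WT call of this fold enrichment was therefore common across promoters. Peaks of like width or pileup were not compared.

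A KO summit at this site would have met the lowest p-value of the KO list with a pileup of 10, if its local background had scaled like the genome as a whole, to 3.06. The KO pileup may thus have been as high as 9, which corresponds to a ratio of −0.91. A peak in the WT list only does not show that the site was closed in KO cells.

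Further inside Gfi1 both lists had a peak. The WT summit lay 1.9 kb from the 5′ end, 193 bp from the second annotated start site. The KO summit lay 2.5 kb from the 5′ end and 832 bp from that start site. The merged region ran from 107723479 to 107724199. The WT summit had a pileup of 14 and the KO summit of 11, a ratio of −0.43 (−1.71 to 0.82), at percentile 20.3 of like shared regions. This difference was within counting error, and it does not compare the same position in both lists. The peaks overlapped by only 50 bp, and their summits lay 639 bp apart, in a UTR exon in WT and in an intron in KO. They were also weak, at percentile 4.01 of the WT list and 3.25 of the KO list by fold.

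Of 13284 protein-coding genes with a promoter peak in the WT list, 7.84% had, like Gfi1, at least 1 promoter region in the WT list only. Only 5.02% had no promoter peak at all in the KO list, and 4.44% of those with a KO promoter peak had none in WT. Gfi1 was not among these, because of its inner peak. RefSeq gives 2 promoters of Gfi1, taken as windows around each start. The outer one (107725756 to 107726055) was overlapped by the WT peak and by no KO peak, and the inner one (107724294 to 107724593) by neither list.

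Downstream of Gfi1 lay a stronger shared site and a weak one in WT only. The region 37.7 kb downstream, at 107687893 to 107688684, lay at the start sites of the noncoding transcripts Gm26692 and 5830411K02Rik. WT had a summit pileup of 19 and KO of 24, a ratio of 0.26 (−0.67 to 1.21), with summits 15 bp apart. The region 27.0 kb downstream, at 107698818 to 107699315 in an exon of the noncoding transcript 4930428O21Rik, had a pileup of 9 in WT, the lowest among these peaks. Its fold enrichment was 4.44, at percentile 18.7 of the WT list. Of WT distal peaks within 5 percentile points of it, 1848 of 3411 (54.2%) had no KO overlap. A KO pileup of 6 would have been called, and one of 5 (a ratio of −0.93) would not.

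**Figure D2:**
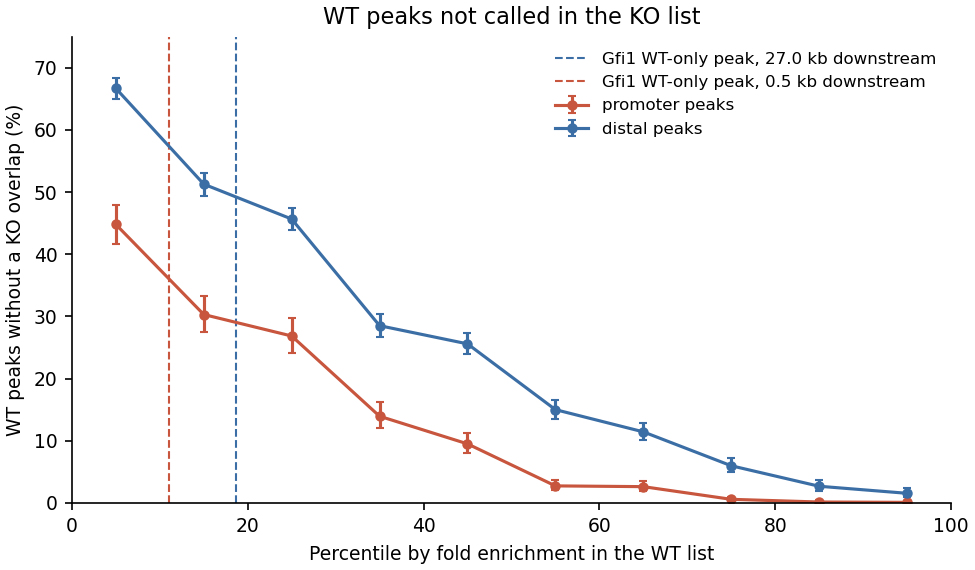
Percentage of WT peaks with no overlapping KO peak (vertical axis, bars are 95% Wilson intervals) in steps of 10 percentile points of the WT list by fold enrichment (horizontal axis), for promoter and distal peaks. The share fell from 44.8% to 0.0765% for promoter and from 66.7% to 1.53% for distal peaks, and the dashed lines put both WT-only peaks of Gfi1 at percentiles 11.0 and 18.7, in the weak part of the list.

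In all, WT peaks covered 4994 bp of the Gfi1 window and KO peaks 2711 bp, a difference of −2283 bp. This difference was at percentile 0.619 of the same measure over 21728 protein-coding genes, for which the middle 95% ran from −1598 to 1518 bp. The Gfi1 window was thus among those that lost most covered bases between the lists. The 2 regions of WT only made up 1718 bp of the WT coverage, and in the 5 regions of both lists the difference was −565 bp. Pileups summed over the peaks, without centring, changed far less than the covered length, from 154 to 148. The site 33.3 kb upstream weighed heavily in these sums, with 67 reads deep in WT against 82 in KO, an excess within counting error. It offset part of the WT-only peaks, whose pileups of 16 and 9 had no called KO counterpart and so added nothing to the KO sum. The sums therefore do not show that signal at the locus was unchanged. With peaks of −log10 q of at least 5 the difference was −398 bp, at percentile 18.5, so the contrast in covered length lay mostly in weak calls. The WT-only promoter peak of 1220 bp, with a −log10 q of 4.82, fell just short of this limit.

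The second comparison was made at Gfi1b (ENSMUSG00000026815.14, chromosome 2, 28609450 to 28621982). All 4 of its regions were in both lists (100%, 95% Wilson interval 51.0 to 100), against 64.8% of all regions. Its own promoter and a strong distal region were accessible in both genotypes, and the 2 remaining regions were promoters of the neighbouring genes Tsc1 and Gtf3c5.

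**Figure D3:**
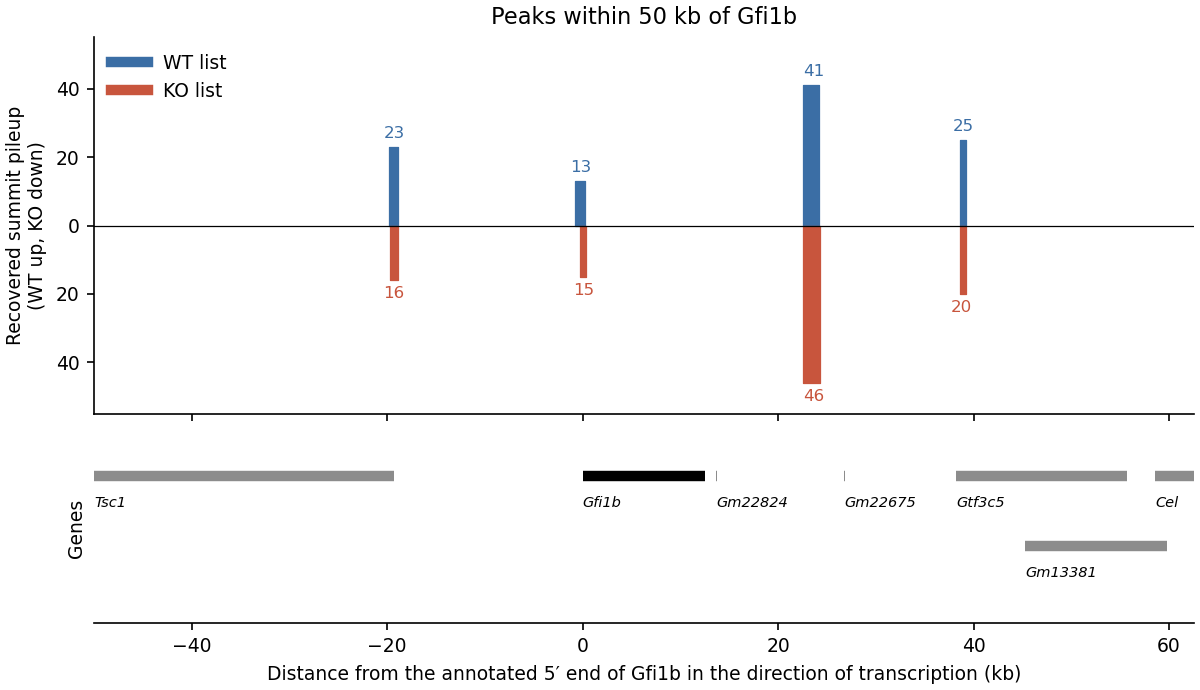
Summit pileup of each peak (vertical axis, WT upward and KO downward) against distance in kb from the 5′ end of Gfi1b in the direction of transcription, with genes as bars below. Each of the 4 WT peaks has a KO counterpart, and the distal region 23.6 kb downstream is the highest, with 41 in WT and 46 in KO.

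The distal region of Gfi1b lay 23.6 kb downstream of its 5′ end, between genes, at 28597645 to 28599480. WT had a summit pileup of 41 and KO of 46, a ratio of 0.08 (−0.55 to 0.73). It was broad in both lists, its WT peak being 1638 bp and its KO peak 1827 bp wide, and the summits were 14 bp apart. The fold enrichment was 8.59 in WT and 9.72 in KO, at percentile 75.3 of the WT list and 70.7 of the KO list. It had the highest pileup of this locus in both genotypes, below that of the 33.3 kb site of Gfi1. At its summit an E-box word at base 80 is followed by a GATA word at base 94.

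The Gfi1b promoter was a weaker site and was called in both lists. The merged region ran from 28621640 to 28622730. WT had a summit pileup of 13 and KO of 15, a ratio of 0.13 (−1.05 to 1.32), at percentile 60.8 of like shared regions. The fold enrichment was 4.88 in WT and 6.86 in KO. The WT peak was the wider, 994 bp against 639 bp. The summits were 266 bp apart, upstream of the gene in WT and in a UTR exon in KO. The single RefSeq promoter of Gfi1b (28621933 to 28622232) was overlapped by the peaks of both lists and held the GATA word printed above.

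Upstream, the promoter of Tsc1, which encodes an inhibitor of mTORC1 signalling, was the only one of the 11 regions past 1.5-fold. It lay 19.3 kb from the Gfi1b 5′ end, at 28640831 to 28641832. The pileup reached 23 in WT against 16 in KO, 1.52-fold lower in KO, with a ratio of −0.60 (−1.62 to 0.38). Without centring the ratio was −0.52, and none of the 9 shared regions was past 1.5-fold. Over all shared regions, 7.91% were past this fold in the lower direction and 7.64% in the higher one. Among shared regions of like pileup 20.7% were past it in 1 direction or the other, and the interval held 0. The promoter of Gtf3c5, a subunit of the RNA polymerase III factor TFIIIC, lay at 28582706 to 28583357. It had 25 in WT and 20 in KO, a ratio of −0.40 (−1.33 to 0.50), with summits 257 bp apart.

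WT peaks covered 4224 bp of the Gfi1b window and KO peaks 3955 bp. This loss of covered bases, −269 bp, ranked at percentile 30.9 over genes, and the summed pileup of 102 in WT was close to the 97 in KO. The bases covered in both lists made up 0.785 of those covered in either at Gfi1b and 0.419 at Gfi1, against 0.571 over all peaks. The paralogs thus lay on opposite sides of the genome-wide value, with no replicate against which to test the difference. With 11 regions in all, the Wilson intervals for the share in both lists overlapped. The mix of sites differed as well, with 3 of 4 regions at start sites at Gfi1b and 3 of 7 at Gfi1. Across the genome 84.0% of promoter regions but 53.8% of distal regions were in both lists. The share was not compared within 1 kind of site. With summits required within 100 bp, the share was 50% at Gfi1 and 33.3% at Gfi1b, so the order of the paralogs depended on how sharing was defined.

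**Figure D4:**
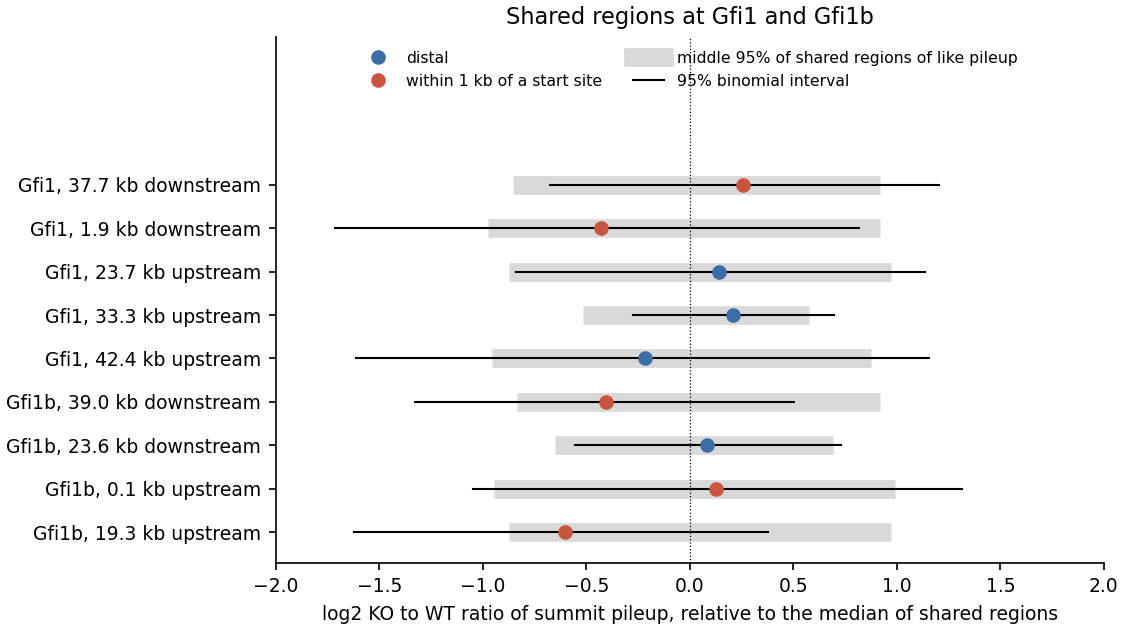
log2 KO to WT ratio of summit pileup, relative to the median of shared regions, for the 9 regions of both lists. Points are ratios, lines 95% binomial intervals and grey bars the central 95% of ratios among shared regions with similar pileup. All 9 intervals hold 0 and all 9 points lie inside the grey bars.

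Across the 9 regions in both lists, 5 ratios were above 0 and 4 below, with a median of 0.08. All 9 intervals held 0. The 4 shared distal regions included 3 above 0 and 1 below, and among the 5 start-site regions 2 were above 0 and 3 below. Over all shared regions the medians were 0.06 for distal and −0.06 for promoter regions. Each of the 9 intervals also held the median of its own kind. The 2 WT-only regions of Gfi1 have no ratio and do not enter here, so this is no statement about either locus as a whole.

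**Figure D5:**
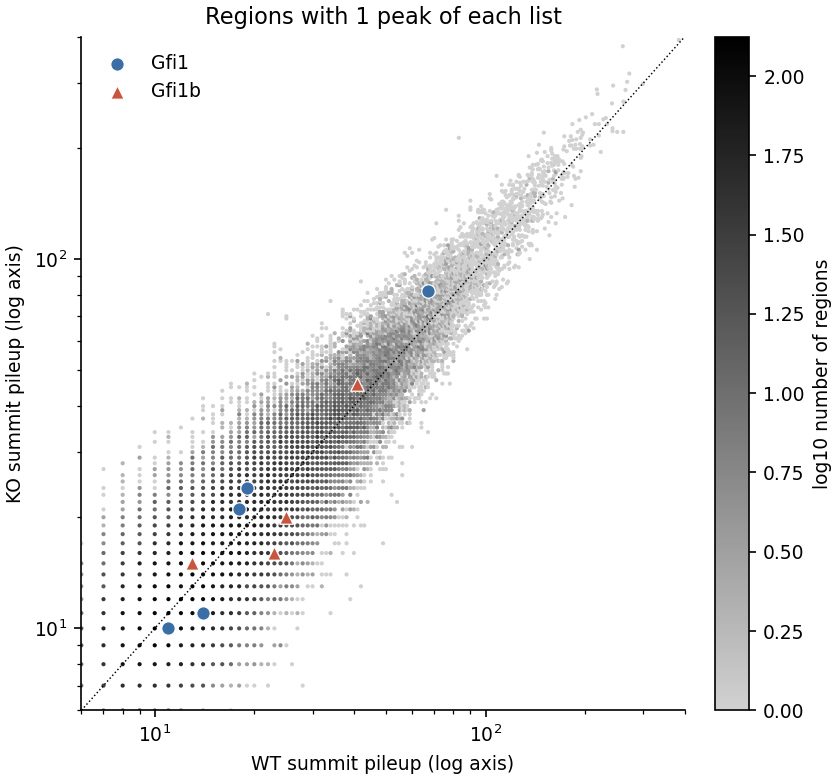
KO against WT summit pileup (both axes logarithmic) for the 28909 regions with 1 peak of each list, shaded by the log10 number of regions at each pair of values; the dotted line marks equal pileup. The 5 regions of Gfi1 and the 4 of Gfi1b lie within the cloud, from 11 in WT and 10 in KO to 67 in WT and 82 in KO.

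Widths and summit positions were compared as well. Of the 9 shared regions, 7 were narrower in KO, against 48.5% of all shared regions. In 6 the summits lay within 100 bp of each other, against 74.5% of all shared regions. The 3 with summits farther apart were all at start sites, those of Gfi1, Gfi1b and Gtf3c5, whereas the 4 distal ones lay 12 to 39 bp apart.

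The regions of both loci were compared by the words in their summit windows, which the choice of members did not use. A GATA word was present in 4 of the 5 distal members, against 19.3% of all distal regions. In a narrower window of 100 bp it was again in 4 of 5, against 9.74%. The distal member without one, 23.7 kb upstream of Gfi1, held 2 ETS words. Of the 6 start-site members, 1 held a GATA word (6.22% of all promoter regions), and this was the Gfi1b promoter. The Gfi1 promoter windows, at 0.5 kb and 1.9 kb, held none.

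The other words were less concentrated. ETS words were in 3 of 5 distal members (46.4% of all distal regions) and in 0 of 6 start-site members (27.8% of promoter regions). In windows of 400 bp they were in 5 of 6 start-site members, against 44.0% of promoter regions. RUNX words were in 1 of 5 distal members (29.2%), the 33.3 kb site of Gfi1. E-box words were in 3 of 6 start-site members (18.6%) and in 1 of 5 distal members (27.8%). In windows of 400 bp, RUNX and E-box words were each in 3 of 5 distal members, against 41.9% and 45.4% of distal regions. The GFI1 word occurred in 1 window of 200 bp only, 2 copies at the noncoding start sites 37.7 kb downstream of Gfi1, against 5.00% of promoter regions. In windows of 400 bp, 1 of 5 distal members held it as well, against 15.0% of distal regions. The full word AATCAC was thus found in neither promoter of the paralogs within 100 bases of the summit. The shorter AATC core was not searched for, and the Gfi1b promoter window printed above does hold it. Words for PU.1 (GAGGAAGT), C/EBP (TTGCGCAA) and AP-1 (TGAGTCA or TGACTCA) were in none of the 11 windows. Base composition also differed, from 35.5% GC at the site 42.4 kb upstream of Gfi1 to 70% at the WT-only Gfi1 promoter peak, against a median of 52.5% over all regions.

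Beyond the windows, the nearest peaks lay in neighbouring genes. Upstream of Gfi1 the next peak in both lists lay 92.4 kb beyond the window, in a UTR exon of Evi5, with a pileup of 26 in WT and 22 in KO. Downstream, the next WT peak was 54.7 kb beyond it and the next KO peak 68.5 kb beyond. At Gfi1b the next peaks of both lists were in introns of Ralgds (20 in WT and 28 in KO), 19.1 kb beyond the window, and of Spaca9 (13 in WT and 11 in KO), 27.1 kb beyond it.

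Promoters of genes that work with the paralogs were then examined. Where a gene had several promoter regions, the values are those of the shared one with the highest summed pileup. All 11 genes for corepressors and partners (Kdm1a, Rcor1, Rcor3, Hdac1, Hdac2, Hdac3, Ehmt2, Hmg20b, Phf21a, Zbtb17 and Ajuba) had a promoter peak in both lists. None was past 1.5-fold, and the ratios ran from −0.52 to 0.33 with a median of 0.13. At Kdm1a, which encodes LSD1, the WT summit had a pileup of 13 and the KO summit of 16.

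Of 9 genes for factors that bind elements of these loci, 7 had a promoter peak in both lists, with a median ratio of 0.02. Gata1 and Fli1 had none in either list. Only Runx1 was past 1.5-fold, with 41 in WT and 28 in KO, a ratio of −0.63 (−1.38 to 0.10), beside the 7.91% of all shared regions. Without centring its ratio was −0.55, short of this fold. Lmo2 lay just inside the limit, with 51 in WT and 36 in KO, a ratio of −0.58 (−1.24 to 0.06). The promoter of Gata2 had 29 in WT and 30 in KO, and that of Tal1 47 in WT and 52 in KO.

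Among 19 genes described as targets of GFI1 or GFI1B, 14 had a promoter peak in both lists. Hoxa9, a homeobox regulator of stem cells, had one in WT only, with a pileup of 16. Bax, which promotes cell death, had one in WT only, with 14. Cdkn1a, a cell cycle inhibitor, had one in KO only, with 10. Csf1r and Elane, both of myeloid cells, had none in either list. Of all genes with a WT promoter peak 5.02% had none in KO, and of those with a KO promoter peak 4.44% had none in WT. The pileups of these 3 peaks were below the median of their list, 18 in WT and 19 in KO. Over the 13 targets with 1 peak of each list the median ratio was −0.06, and the range was −0.73 to 0.40. Only Gata3, a factor of lymphoid cells, was past 1.5-fold, with 33 in WT and 21 in KO, a ratio of −0.73 (−1.60 to 0.10). The intervals of Runx1 and Gata3 held 0, and over all shared regions 7.91% were past this fold in the lower direction. Meis1 had a peak of each list in a region that held further peaks and was given no ratio.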

How the data were processed

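ATAC-seq peaks of WT and KO mouse stem cells were analysed, 1 list per genotype. Per the labels and the study's methods, the authors trimmed reads with Trim Galore, used Bowtie2 for alignment to mm10 and Picard against duplicates and called peaks with MACS2 without a fragment model. Versions, and whether each list pools both samples, are not given in the sources used here. For each peak the deposited lists hold the authors' fold enrichment over local background, −log10 p, −log10 q and a display score, which was not used. The separate deposited summit lists repeat the summit positions with their −log10 q and were not needed.

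Read totals are unknown. The deposited fold enrichment and −log10 p were solved together, in the Poisson model of the peak caller, for summit pileup and local background. A whole-number pileup matched within 0.001 for 99.99% of peaks of each list. This step was tested on simulated data. Peaks on the autosomes and chromosome X (37887 in WT and 37615 in KO) were merged where they overlapped by at least 1 bp, and annotated with GENCODE M21 on GRCm38.p6. With 1 list per genotype, no test was made; binomial and Wilson intervals cover counting error only, and regions are not replicates. Words were searched in 200 bp around the WT summit, or the KO summit of regions without a WT peak. Genes and regions named were the members, neighbours with a peak at their start site, and, of each pathway list, genes past 1.5-fold or without a promoter peak in 1 or both lists. The other pathway genes given were named after their values were seen. Members, words and gene lists were chosen with earlier results of these data known. Windows of 10 and 100 kb, stricter q limits, other overlap rules, other scalings and motif windows were tried as alternatives. The covered bases in regions of both lists only , the spaced E-box and GATA words and the uncentred pathway ratios were added after the data were seen. Hbb-b1 was not matched by name in the annotation, and some marker genes are not reported here. Python 3.11.15, NumPy 2.4.6, SciPy 1.17.1, pandas 2.3.3 and matplotlib 3.10.9 were used.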

Additional observations from a re-analysis of the deposited data

How the results depend on the processing

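The covered bases at Gfi1, KO minus WT (−2283 bp), depended on window and strength. With 10 kb on each side the difference was −1387 bp, at percentile 1.13 over genes. Widening to 100 kb added no peak of either list, so the difference was again −2283 bp, at percentile 1.75. It was −398 bp among peaks past a −log10 q of 5, −236 bp among those past 10, and in regions of both lists only (chosen after seeing the data) it was −565 bp. Under both q limits 100% of the remaining Gfi1 regions were in both lists, since the weak WT-only peaks no longer entered. At Gfi1b the difference of −269 bp became −507 bp with 100 kb on each side and reversed to 86 bp with −log10 q of at least 10. Requiring summits within 100 bp left 33.3% of Gfi1b and 50% of Gfi1 regions in both lists, the reverse of the order reported. Where each peak had to be covered to 50% by the other, 100% remained at Gfi1b and 50% at Gfi1. No region was past 2-fold (0 of 9), and 0 were past 1.5-fold without centring. In windows of 400 bp, 27 pairs of region and word matched in place of 14, and 2 regions held the spaced E-box and GATA words. The ratio of the inner Gfi1 promoter region, 1.9 kb from the 5′ end, stayed below 0 (−1.06 to −0.18) under the 4 scalings tried. These scalings reuse the same pair of weak peaks, which overlapped by only 50 bp, and are no independent support. The interval of the reported ratio (−1.71 to 0.82) held 0, and the outer promoter peak, in WT only, has no ratio. The other ratios did not keep their sign. That of the Gfi1b promoter ran from −0.51 to 0.29. The Gfi1 distal median ran from −0.10 to 0.31 and the Gfi1b distal median from −0.08 to 0.25. No interval was computed under the other scalings or for the Gfi1 median. The causes of these shifts were not tested beyond what each setting itself removes.

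No paired analysis was possible because the samples of a genotype share 1 list, and leaving out a replicate could not be run for the same reason. Pileups of 9 to 25 at most sites limited the detectable difference: the interval at the Gfi1b promoter reached from −1.05 to 1.32.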

Other observations

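In the printed sequences, the E-box and GATA words at the distal Gfi1b site are separated by 8 bases. After this was seen, all regions were searched for CANNTG followed by 8 or 9 bases and a GATA word on either strand. The arrangement was present in 2 of the 11 summit windows, at the distal Gfi1b site and 42.4 kb upstream of Gfi1, and in 0.522% of distal and 0.374% of all regions. Both sites were in both lists. Since the search was prompted by these sequences, the count is a description of the members and not a test.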
